A study of Homo sapiens with 87 samples.

Results

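The comparison set 618-10 against 618-3, the clones of HAP1 cells that carry a knockout of ARID1A, and asked which genes differ between clones of the same knockout. HAP1 is a human cell line with a near-haploid genome that goes back to a chronic myeloid leukaemia. Each clone had 3 RNA-seq libraries, chosen by the clone number and the knocked-out gene in the labels, which makes 6 of the 75 labelled libraries of the knockout table and 6 of the 87 samples of the series. The other groups of that table are the wild-type line WT C631 and 22 other knockout clones of genes of the BAF complex, each with 3 libraries, 25 groups in all. No group carried a treatment per the labels, all cells were grown in the same medium with serum, and the libraries were made from poly-A RNA with a stranded kit. Both clones carry the same knockout label and each clone number is a line of its own. The edit of a clone and its other traits therefore cannot be told apart within this pair. The sources used here give neither the edit in each clone nor the cultures behind its libraries. P-values therefore measure the spread between libraries only, which may be technical.

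ARID1A is the largest subunit of the canonical BAF (SWI/SNF) complex, which uses the ATPase SMARCA4 or SMARCA2 to move nucleosomes and open promoters and enhancers. ARID1A binds DNA and holds the complex together, its paralog ARID1B can take its place, and ARID1A is among the chromatin genes most often mutated in human tumours. A single-cell clone also carries whatever expression state its founder cell had, and clones of a line can differ in genes that are kept on or off through cell division.

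Of 16159 genes tested, 203 were called different between the clones, 1.26% of those tested. A gene was called when its adjusted p in edgeR's quasi-likelihood test (Benjamini-Hochberg) was below 0.05 and its log2 fold change was at least 1 in size. Clone 618-10 was higher for 132 of them (0.817% of genes tested) and clone 618-3 for 71 (0.439%). At an adjusted p below 0.05 with any fold, 372 genes passed (2.3%), 203 of them higher in 618-10. The median log2 fold change of all genes tested was -0.01. The called genes had a median absolute log2 fold change of 1.82, and 84 of them were past 2, of which 54 were higher in 618-10 and 30 in 618-3. Most were weakly expressed: the median level in the higher clone was 2.87 CPM (the count of a gene scaled to the total of its library), 74 genes reached 5 CPM there, and 114 were under 1 CPM in the lower clone. The libraries of the clones did not overlap for 201 of the 203 genes, against 2024 of all genes tested (12.5%). The total count per library was between 17992322 and 19699725 in the 6 libraries and between 14917644 and 29993652 in the whole table.

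**Figure D1:**
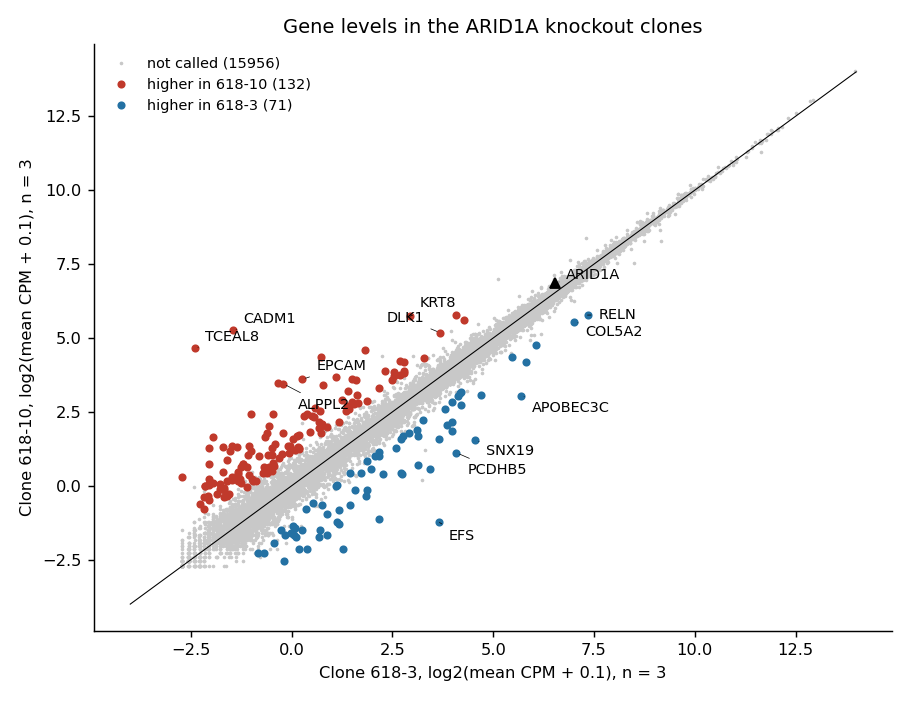
Mean level of each tested gene in clone 618-3 (x axis) and clone 618-10 (y axis), both as log2(mean CPM + 0.1) over 3 libraries. Grey points are genes that were not called, red points the 132 genes higher in 618-10, blue points the 71 higher in 618-3, and the triangle is ARID1A, which lies close to the line of equal levels.

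The targeted gene was read first. ARID1A stood at 125, 107 and 118 CPM in the libraries of 618-10, at 90.4, 89.7 and 99.3 CPM in those of 618-3, and at 241, 220 and 189 CPM in wild type. Both clones were below wild type in every library, and 618-3 was below 618-10 in every library. The log2 fold change of 618-10 minus 618-3 was 0.34 (SE 0.111), which did not pass the test (adjusted p = 0.11). Against wild type, ARID1A mRNA fell by 0.90 on the log2 scale in 618-10 (SE 0.111, adjusted p = 2.02e-09) and by 1.24 in 618-3 (SE 0.112, adjusted p = 9.2e-14). A frameshift can leave a transcript in place, so these levels do not show how much protein was left. None of the 30 tested genes for BAF subunits was called between the clones, none had an adjusted p below 0.05, and their log2 fold changes lay between -0.50 for SMARCA2 and 0.34 for ARID1A itself. ARID1B, the paralog, had 30.3, 27.5 and 39.2 CPM in 618-10 and 42.7, 46.7 and 45.3 CPM in 618-3 (log2 fold change -0.46, SE 0.201, adjusted p = 0.375).

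The gene with the largest fold was TCEAL8, an X-linked gene of the TCEAL and BEX family, named for likeness to a transcription elongation factor. Its level was 24.7, 29.1 and 21.2 CPM in 618-10, 0.111, 0.0508 and 0.104 CPM in 618-3, and 3.53, 4.32 and 3.89 CPM in wild type. Clone 618-10 was thus above wild type in every library and 618-3 was close to the lowest value the table lists. The counts summed to 1388 in 618-10 and to 5 in 618-3, a ratio of 285 with a 95% counting interval from 122 to 879. The log2 fold change was 8.07 (SE 0.225, adjusted p = 8.87e-36). Because every value of the table is at least 1, the size of such a fold depends on how that minimum is read, while its direction does not.

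BEX2, of the same family, had 5.63, 6.24 and 3.91 CPM in 618-10 against 0.278, 0.305 and 0.624 CPM in 618-3 (log2 fold change 3.69, SE 0.265, adjusted p = 1.55e-16). Wild type had between 0.136 and 0.224 CPM, so here 618-10 stood apart from both other groups. WBP5, another member of the family, was at 1.23 ± 0.12 CPM in 618-10 and 0.298 ± 0.0507 CPM in 618-3 (SD, n = 3; log2 fold change 2.03, adjusted p = 9.34e-07), and both clones were far under wild type with 16.9 CPM. Of the 11 tested family members, these 3 were called higher in 618-10 and none was called higher in 618-3, with a median log2 fold change of 0.18 over the family against -0.01 over all genes tested. The most abundant members differed little: BEX4 had 82 CPM in 618-10 and 82.6 CPM in 618-3, and NGFRAP1 304 and 322 CPM. BEX2 and WBP5 are neighbours among the tested genes.

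The promoter sequences of TCEAL8 and BEX2 are shown because these family members were called together, and that of EFS because it is the gene with the largest fold in the other direction. Each is the stretch of 250 bases before the gene's start in RefSeq (build GRCh38.p14, minus strand in all 3), 5′ to 3′, with every CG dinucleotide in capitals, since CG pairs are where DNA methylation is placed in human cells. TCEAL8 lies at chrX:103255156-103255405, BEX2 at chrX:103310991-103311240 and EFS at chr14:23365173-23365422.
TCEAL8: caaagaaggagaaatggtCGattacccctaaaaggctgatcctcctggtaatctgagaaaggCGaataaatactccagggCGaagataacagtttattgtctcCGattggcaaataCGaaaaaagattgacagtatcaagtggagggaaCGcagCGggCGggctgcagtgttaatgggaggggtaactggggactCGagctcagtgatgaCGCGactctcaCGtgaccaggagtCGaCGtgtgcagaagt
BEX2: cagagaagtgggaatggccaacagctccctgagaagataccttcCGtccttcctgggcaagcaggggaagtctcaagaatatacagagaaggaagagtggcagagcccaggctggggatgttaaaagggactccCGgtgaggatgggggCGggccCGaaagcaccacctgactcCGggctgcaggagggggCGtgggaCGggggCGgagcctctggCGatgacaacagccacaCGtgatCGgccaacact
EFS: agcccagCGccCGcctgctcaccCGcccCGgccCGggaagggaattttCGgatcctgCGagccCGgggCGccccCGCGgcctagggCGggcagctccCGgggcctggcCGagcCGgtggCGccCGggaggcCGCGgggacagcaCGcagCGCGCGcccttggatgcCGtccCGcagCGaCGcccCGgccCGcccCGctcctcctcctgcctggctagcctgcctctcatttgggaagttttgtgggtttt
The stretch of TCEAL8 holds 14 CG pairs at a GC content of 49.6%, that of BEX2 11 at 61.2%, and that of EFS 30 at 75.6%. Methylation was not measured in these libraries, and the sequences describe the genes only.

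CADM1, a cell adhesion molecule of the immunoglobulin family, had the next largest fold. It stood at 36.6, 38.5 and 39.1 CPM in 618-10, at 0.222, 0.152 and 0.416 CPM in 618-3 and at 1.4, 4.5 and 1.54 CPM in wild type. The clones lay on opposite sides of wild type, with no overlap among the 3 groups. The log2 fold change between the clones was 7.15 (SE 0.307, adjusted p = 2.49e-26), and the ratio of summed counts was 145, with a 95% counting interval from 87.4 to 259. CNTNAP2, a neural adhesion gene, was low in both clones, at 1.06 ± 0.389 CPM in 618-10 and 0.143 ± 0.0865 CPM in 618-3, against 9.1 CPM in wild type (log2 fold change between the clones 2.87, adjusted p = 5.78e-09).

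Some genes known from epithelial cells were called higher in 618-10, while others, such as DSP, DSG2 and KRT18, were not called. EPCAM, the epithelial cell adhesion molecule, had 14.6, 11.2 and 10.3 CPM in 618-10 against 1.39, 0.609 and 1.30 CPM in 618-3 (log2 fold change 3.46, SE 0.293, adjusted p = 6.95e-14), and the libraries of 618-3 overlapped those of wild type. KRT8, a keratin of simple epithelia, had 62.9, 54.2 and 42.7 CPM in 618-10, 4.06, 7.92 and 10.9 CPM in 618-3 and 23.3, 19.7 and 14.7 CPM in wild type. The 3 groups of KRT8 values did not overlap. Between the clones the log2 fold change was 2.81 (SE 0.289, adjusted p = 8.23e-11). KRT18, the partner with which KRT8 builds filaments, differed much less, with 57.5 ± 2.85 and 45.8 ± 6.53 CPM (log2 fold change 0.34, adjusted p = 0.353).

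SPINT2, an inhibitor of membrane serine proteases, was at 47.0, 55.8 and 44.8 CPM in 618-10 and at 18.3, 19.1 and 20.6 CPM in 618-3 (log2 fold change 1.36, SE 0.152, adjusted p = 8.35e-10). Wild type lay between the clones, at 27.4 CPM. RBM47, an RNA-binding protein of epithelia, had 9.04 ± 1.02 CPM in 618-10 and 2.54 ± 0.863 CPM in 618-3 (log2 fold change 1.83, adjusted p = 4.89e-05). A list of epithelial genes was drawn up after these values had been seen: 10 of its 28 tested members were called higher in 618-10 and none higher in 618-3, and its median log2 fold change was 0.60. Besides the 4 genes above, the called members were PRSS8, S100A14, SCNN1A, BSPRY, SFN and CLDN7, all but SFN at about 1 CPM or less in the higher clone. The call of CLDN7 ended without 618-10 replicate 3 (log2 fold change 0.81), without 618-3 replicate 1 (0.98) and without 618-3 replicate 2 (1.31). With DESeq2, neither SCNN1A (adjusted p = 0.1) nor CLDN7 (adjusted p = 0.637) was called. The desmosomal genes DSP and DSG2, at 91.4 and 260 CPM in 618-10, and the tight junction gene OCLN were not called, with log2 fold changes between 0.03 and 0.17, and CDH1, which encodes the epithelial cadherin, had too few counts to be tested. MYO5C, a class V myosin of secretory epithelia that was not on the list, had 24.1 ± 2.75 CPM in 618-10, 3.44 ± 0.639 in 618-3 and 11.8 ± 2.19 in wild type (log2 fold change between the clones 2.82, SE 0.164, adjusted p = 2.54e-20).

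Several genes of germ cells, the early embryo and the placenta were also higher in 618-10. ALPPL2, a germ-cell alkaline phosphatase, had 14.5, 10.4 and 7.71 CPM in 618-10 and 0.611, 1.01 and 0.676 CPM in 618-3 (log2 fold change 3.81, SE 0.334, adjusted p = 2.45e-13). ALPP, its placental neighbour with a nearly identical sequence, moved the same way (2.60, adjusted p = 5.9e-05), and how reads shared by the pair were counted is not known. DNMT3L, a cofactor of the DNA methyltransferases in germ cells, was at 3.70, 3.53 and 1.90 CPM in 618-10 and at 0.167, 0.152 and 0.156 CPM in 618-3, the last close to wild type (log2 fold change 4.22, adjusted p = 5.01e-20). DPPA3 (log2 fold change 2.43), a maternal factor that limits DNA methylation, and the folate receptor gene FOLR1 (3.48) were called as well, so that 5 of 16 tested genes of a list drawn up after the values had been seen were higher in 618-10 and none in 618-3, at a list median of 0.37.

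Of 13 tested pluripotency genes, 2 were called, both higher in 618-10, and the median of the list was 0.45. TDGF1, a co-receptor for Nodal, had 17.3, 19.1 and 19.7 CPM in 618-10 and 4.89, 5.99 and 8.11 CPM in 618-3 (log2 fold change 1.57, adjusted p = 4.88e-08). GDF3, a ligand of the TGF-beta family, had 20.04 ± 1.65 and 9.7 ± 1.12 CPM (log2 fold change 1.06, adjusted p = 0.000117), both above wild type with 1.44 CPM, and fell short of the fold threshold without 618-10 replicate 2 (0.99) or without 618-3 replicate 2 (0.96). The core factors were at like levels in the clones: POU5F1 had 532 CPM in 618-10 and 499 CPM in 618-3, and SOX2 had 705 and 760 CPM. DLK1, an imprinted inhibitor of differentiation, had 30.2, 39.6 and 38.2 CPM in 618-10, 8.50, 12.1 and 17.7 CPM in 618-3 and about 1.09 CPM in wild type. Both clones were thus above wild type for DLK1, 618-10 the more so (log2 fold change between the clones 1.5, SE 0.268, adjusted p = 8.93e-05).

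Enzymes, transporters and channels were called as well. HRASLS5, a phospholipid-modifying acyltransferase, had 20.04, 22.4 and 18.2 CPM in 618-10, 1.61, 1.37 and 1.66 CPM in 618-3 and 4.26, 5.98 and 4.48 CPM in wild type (log2 fold change between the clones 3.71, SE 0.225, adjusted p = 1.18e-19). The 3 groups of HRASLS5 values were again separate, with wild type in the middle. GRIA3, a subunit of AMPA-type glutamate receptors, had 10.5 ± 0.991 CPM in 618-10 and 1.62 ± 0.192 CPM in 618-3, both above wild type with 0.173 CPM (log2 fold change between the clones 2.71, adjusted p = 9.18e-16). SLC43A3, a purine nucleobase transporter, showed the other pattern: 618-10 (12.2 ± 2.79 CPM) was near wild type (16 ± 1.22 CPM) and 618-3 was lower, at 2.72 ± 0.534 CPM (log2 fold change between the clones 2.17, adjusted p = 7.36e-10). The remaining named genes higher in 618-10 were VAMP8, a SNARE of late endosomes (3.05), C9orf135 (2.63), CDA, which deaminates cytidine (2.15), ARHGAP36 (2.15), the inward rectifier channel gene KCNJ12 (2.14), FAM19A4 (2.03), TMTC1 (1.94) and the matrix proteoglycan gene VCAN (1.90), all as log2 fold changes. B4GALNT2, a glycosyltransferase, had the lowest listed count in each 618-3 library and 1.02, 1.03 and 1.36 CPM in 618-10, which is at least 7.18-fold higher when 3 counts per library are taken as the floor.

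**Figure D2:**
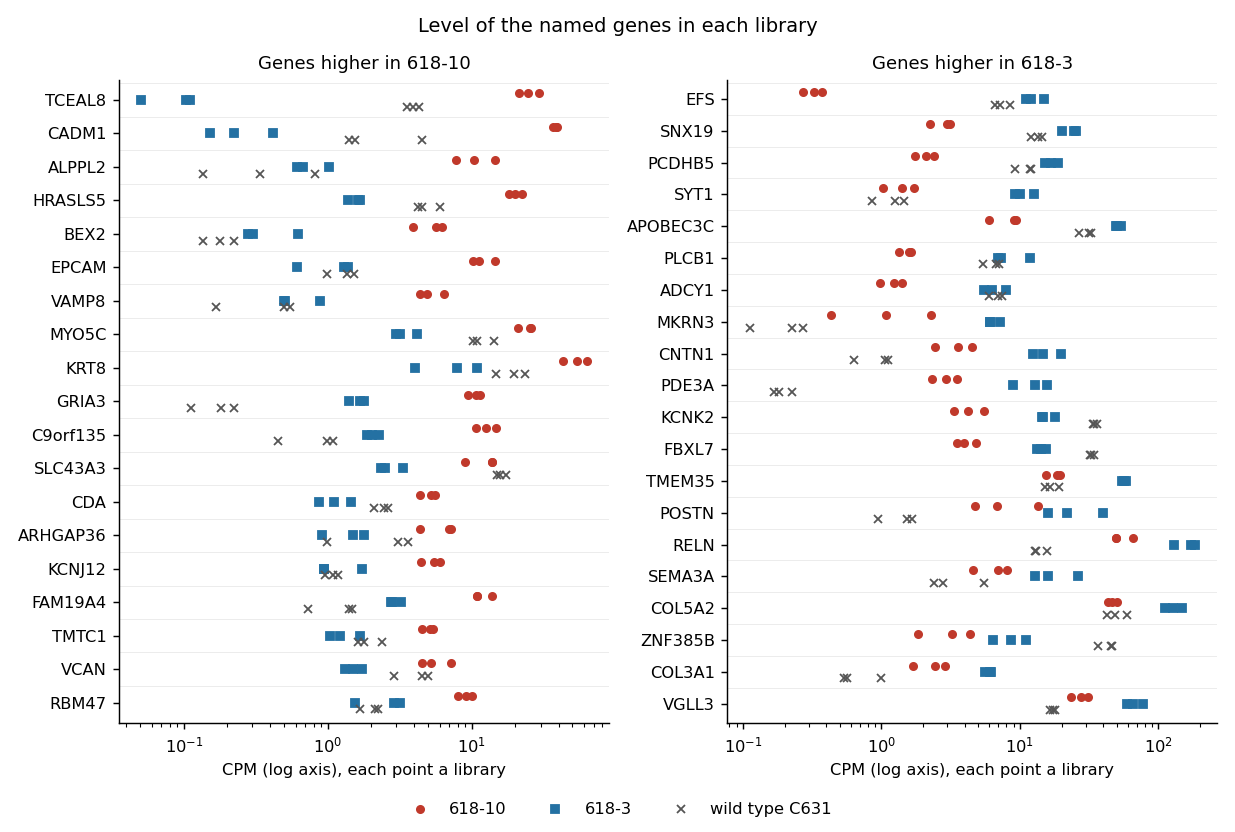
CPM of named genes among the 20 with the largest fold in each direction (left, higher in 618-10; right, higher in 618-3), on a log axis, with 1 point per library. Red circles are 618-10, blue squares 618-3 and grey crosses wild type C631, and in every row the red and blue points are separate. Wild type lies with 618-10 for some genes, with 618-3 for others, and between them for genes such as CADM1 and KRT8. For genes such as RELN, GRIA3 and KCNK2 it lies outside both clones.

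Among the 71 genes higher in 618-3, EFS had the largest fold. EFS is an adaptor protein of the CAS family that binds Src-family kinases. It stood at 0.375, 0.326 and 0.272 CPM in 618-10, at 11.0, 12.0 and 14.8 CPM in 618-3 and at 6.61, 8.50 and 7.19 CPM in wild type. EFS was thus nearly silent in 618-10 and above wild type in every library of 618-3 (log2 fold change -5.24, SE 0.251, adjusted p = 3.33e-24). The counts summed to 18 in 618-10 and 719 in 618-3, a ratio of 38.9 with a 95% counting interval from 24.5 to 66.1. APOBEC3C, a cytidine deaminase that restricts retroviruses, had 5.95, 9.45 and 9.02 CPM in 618-10, 49.2, 50.4 and 53.7 CPM in 618-3 and 31.6, 26.6 and 32.4 CPM in wild type. The drop of APOBEC3C was in 618-10, with a log2 fold change between the clones of -2.64 (SE 0.207, adjusted p = 4.63e-15). SNX19, a sorting nexin, behaved alike, with 2.80 ± 0.479 CPM in 618-10, 23.4 ± 2.88 in 618-3 and 13.4 ± 1.16 in wild type (log2 fold change between the clones -3.05, SE 0.156, adjusted p = 5.77e-23).

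Extracellular matrix genes were called mainly in this direction, 4 higher in 618-3 and 1 (VCAN) higher in 618-10 of 34 tested, while the median of the list was -0.09. COL5A2, a chain of type V collagen, had 43.0, 46.5 and 50.1 CPM in 618-10, 113, 127 and 147 CPM in 618-3 and 42.8, 48.7 and 59.1 CPM in wild type. Clone 618-10 was within the wild-type range for COL5A2 and 618-3 was higher in every library (log2 fold change between the clones -1.46, SE 0.106, adjusted p = 2.38e-16). COL3A1, the gene of type III collagen and its neighbour, had 2.34 ± 0.611 CPM in 618-10 and 5.96 ± 0.357 CPM in 618-3 (-1.34, adjusted p = 4.22e-05). POSTN, the matricellular protein periostin, varied more between libraries, with 6.80, 4.78 and 13.5 CPM in 618-10 and 15.9, 22.0 and 39.8 CPM in 618-3 (log2 fold change -1.62, SE 0.272, adjusted p = 2.66e-05), and was not called when the fit held only the 6 libraries of the clones (adjusted p = 0.295). EFEMP1, under 1 CPM in both clones, was the fourth (-1.92, adjusted p = 0.00435), and its call ended without 618-10 replicate 1 (-1.68) or without 618-3 replicate 3 (-1.58). VGLL3, a cofactor of TEAD transcription factors, was at 27.2 ± 3.87 CPM in 618-10 and 67.1 ± 9.24 CPM in 618-3 (-1.29, adjusted p = 1.7e-08).

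Genes known from neurons were called in both directions. RELN, the secreted glycoprotein that guides migrating neurons, had 49.02, 65.4 and 49.5 CPM in 618-10, 171, 130 and 184 CPM in 618-3 and 13.1, 15.7 and 12.9 CPM in wild type. Both clones were above wild type for RELN and 618-3 above 618-10 in every library (log2 fold change between the clones -1.55, SE 0.278, adjusted p = 9.15e-05). SYT1, the calcium sensor of synaptic vesicles, was at 1.39 ± 0.342 CPM in 618-10 and 10.7 ± 1.79 CPM in 618-3, with wild type at 1.19 ± 0.305 (log2 fold change between the clones -2.92, SE 0.418, adjusted p = 7.61e-07). CNTN1, an adhesion protein of axons, had 3.51 ± 1.03 and 15.6 ± 3.83 CPM (-2.14, adjusted p = 3.85e-10). SEMA3A, a secreted axon repellent, had 6.53 ± 1.76 and 18.3 ± 6.9 CPM (-1.47, adjusted p = 0.000211).

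Over the 41 tested genes of neural adhesion and axon guidance, 2 were called higher in 618-10, CNTNAP2 among them, and 3 in 618-3 (CNTN1, SEMA3A and EPHA5), at a median of -0.15. EPHA5 lost its call without 618-10 replicate 3 (log2 fold change -0.96) or without 618-3 replicate 1 (-0.65). Of 25 tested genes for ion channels and transmitter receptors, GRIA3 was called higher in 618-10 and KCNK2, KCNN2 and GRIA2 in 618-3, at a median of -0.17, and GRIA2 was not called without 618-3 replicate 1 (-1.72). KCNK2, a two-pore potassium channel, had 4.23, 5.54 and 3.37 CPM in 618-10, 17.9, 14.5 and 14.7 CPM in 618-3 and between 33.9 and 36.3 CPM in wild type (log2 fold change between the clones -1.83, SE 0.151, adjusted p = 3.31e-14). Both clones were below wild type for KCNK2, 618-10 further.

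Of 31 tested clustered protocadherins, a family of cell-surface recognition molecules, 4 were called and all were higher in 618-3, at a median of -0.01. PCDHB5 had 2.09, 2.39 and 1.74 CPM in 618-10, 15.1, 16.8 and 18.9 CPM in 618-3 and 11.9, 9.22 and 11.8 CPM in wild type (log2 fold change between the clones -3.02, SE 0.183, adjusted p = 1.18e-19). PCDHA11 (-1.89), PCDHAC1 (-2.07) and PCDHAC2 (-1.04) are neighbours among the tested genes. The alpha protocadherins share exons at their end, so how reads were split among them is not known. Without 618-3 replicate 3, PCDHA11 (-1.45) and PCDHAC2 (-0.95) were no longer called.

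Several signalling enzymes were lower in 618-10. PLCB1, a phospholipase C, had 1.51 ± 0.154 CPM in 618-10, 8.71 ± 2.77 in 618-3 and 6.39 ± 0.844 in wild type (log2 fold change between the clones -2.50, adjusted p = 4.22e-14). ADCY1, an adenylyl cyclase that makes cAMP, had 1.21 ± 0.219, 6.55 ± 1.23 and 6.76 ± 0.737 CPM in the same order (-2.42, adjusted p = 8.44e-14). PDE3A, a phosphodiesterase that breaks cAMP down, had 2.92 ± 0.613 CPM in 618-10 and 12.6 ± 3.47 CPM in 618-3, both above wild type with 0.191 CPM (-2.09, adjusted p = 2.2e-08). Of 49 tested receptor kinases and their ligands, 3 were called, all higher in 618-3: PDGFD (-2.97), ERBB2 (-1.45) and HGF (-1.07). ERBB2 was not called without 618-10 replicate 1 (-1.30) or without 618-3 replicate 2 (-1.34), and HGF not without 618-3 replicate 1 (-0.66). HGF was not called with DESeq2 either (adjusted p = 0.559). DKK1, a secreted WNT antagonist at 1.5 CPM in 618-3 and 0.198 CPM in 618-10, was the called gene among 37 tested of the WNT pathway (-2.87).

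The other named genes higher in 618-3 were MKRN3, an imprinted gene (log2 fold change -2.33), FBXL7, a subunit of ubiquitin ligases (-1.80), TMEM35, a chaperone of acetylcholine receptors (-1.64), and ZNF385B (-1.45), which was not called when the fit held only the 6 libraries of the clones. ZNF385B had 3.15 ± 1.28 CPM in 618-10 and 8.71 ± 2.34 in 618-3, both under wild type with 42.5 CPM. Of 77 tested homeobox and other developmental factors, 2 were called higher in 618-10, GATA4 (2.35) among them, and FOXA2 (-3.19) and ZIC2 (-1.09) in 618-3, at a median of -0.08. GATA4 was not called with DESeq2 (adjusted p = 0.209). PGM5, CHFR and MGMT, which the rule for named genes does not select, were chosen after their values had been seen. PGM5 was at 2.67, 2.03 and 2.24 CPM in 618-3 and at most 0.163 CPM in 618-10, while wild type had 22 CPM (log2 fold change between the clones -4.12). The mitotic checkpoint gene CHFR was at 2.11, 1.88 and 2.55 CPM in 618-3 and at most 0.435 CPM in 618-10 (-2.79). The DNA repair gene MGMT was at 1.39, 1.90 and 1.41 CPM in 618-10 and at most 0.389 CPM in 618-3, with wild type near 9.71 CPM (2.22).

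In some lists a single gene was called, such as ETV1 (log2 fold change 1.45) of 35 ERK feedback and immediate early genes and OAS2 (1.96) of 46 interferon and antigen presentation genes, both higher in 618-10. ETV1 lost its call without 618-10 replicate 1 (1.10) or without any 1 of the 618-3 libraries (1.39 to 1.49). Of 24 tested imprinted genes, DLK1 and MKRN3 were called, in opposite directions. No gene was called among erythroid and platelet genes, integrins and cadherins, HOX genes, actin, SRF and YAP targets, cell cycle and replication genes, integrated stress response genes, metallothioneins, cancer-testis genes, histone genes and oxidative phosphorylation genes, with list medians between -0.08 and 0.34. These lists held 5 to 37 tested genes, and 1.26% of all genes tested were called, so a list of this size without a call is near that share. At an adjusted p below 0.05 with any fold (2.3% of all genes tested), 1 integrin or cadherin gene passed. So did 1 HOX gene, 2 actin, SRF and YAP targets and 1 histone gene.

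The p53 targets need their values by library. None of 20 tested was called, none had an adjusted p below 0.05 and 1 had an unadjusted p below 0.05, in edgeR as in DESeq2, yet the median log2 fold change of the list was 0.58. CDKN1A, the p21 inhibitor of cyclin-dependent kinases, had 7.66, 101 and 272 CPM in 618-10 and 7.00, 25.4 and 71.8 CPM in 618-3, with 25.6, 17.0 and 191 CPM in wild type. MDM2, the ubiquitin ligase of p53, had 96.7, 228 and 668 CPM in 618-10, 106, 121 and 247 CPM in 618-3 and 126, 130 and 433 CPM in wild type. The library numbered 3 was the highest of its group for 19 of the 20 targets in 618-10, for 14 in 618-3 and for 18 in wild type. The summed level of the 20 genes was 1083, 1748 and 2853 CPM in the libraries of 618-10 numbered 1 to 3, and 951, 1216 and 1597 CPM in those of 618-3. The ranges of the clones overlapped, and 618-10 was above 618-3 at each of the 3 library numbers. The labels do not say what libraries with the same number share. Without 618-10 replicate 3 the list median was 0.18, and without 618-3 replicate 3 it was 0.86.

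Markers of other cells were read for the same libraries. Summed fibroblast markers were 161 to 185 CPM in 618-10 and 149 to 184 CPM in 618-3, with 6 of 10 tested, of which THY1 was called higher in 618-10 and COL3A1 and POSTN in 618-3. Summed A549 markers were 3.75 to 7.12 and 4.21 to 10.8 CPM, with 1 of 10 tested called (AKR1C3, log2 fold change 1.20, not called without 618-10 replicate 3, 618-3 replicate 2 or 618-3 replicate 3, with values from 0.95 to 1.15). Summed HEK293 markers were 197 to 213 and 194 to 215 CPM, with ZIC2 called of 8. Summed blood lineage markers were 102.2 to 116 and 117 to 128 CPM, with 1 of 11 called: HCLS1, a cortical actin regulator of blood cells, at 0.415 ± 0.0854 CPM in 618-10 and 1.73 ± 0.305 in 618-3 against 39.6 in wild type (log2 fold change between the clones -2.04). The part of such cells in the called genes was not tested.

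Most of the 203 genes were called against wild type in a single clone. The comparisons of each clone with wild type share the wild-type libraries, and the counts are given side by side for that reason. In 618-10, 1015 of the genes tested were called against wild type (6.28%), with 3.84% up and 2.44% down. In 618-3, 986 were called (6.1%), with 3.53% up and 2.57% down. Of the 203 genes, 77 were called against wild type in 618-10 alone, 57 of them up and 20 down. A further 44 were called in 618-3 alone, 17 up and 27 down. Both clones were called in the same direction for 54 genes, 34 up and 20 down, so that the clones differed in extent. Neither clone was called against wild type for 19 genes, among them SPINT2. Conversely, of the 736 genes called in the same direction in both clones, 54 (7.34%) were also called between them.

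Both clones were called against wild type in opposite directions for 9 genes, of which 8 are described. TCEAL8 rose by a log2 fold change of 2.66 in 618-10 and fell by 5.4 in 618-3, and CADM1 rose by 3.91 and fell by 3.24. HRASLS5 (2.03 and -1.68), KRT8 (1.46 and -1.34), CDA (1.07 and -1.07) and MYO5C (1.03 and -1.79) went the same way as TCEAL8 and CADM1. ARHGAP4, a GTPase-activating protein, went the other way, with -2.25 in 618-10 and 1.32 in 618-3, as did the zinc finger gene BNC1 (-1.28 and 1.67).

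**Figure D3:**
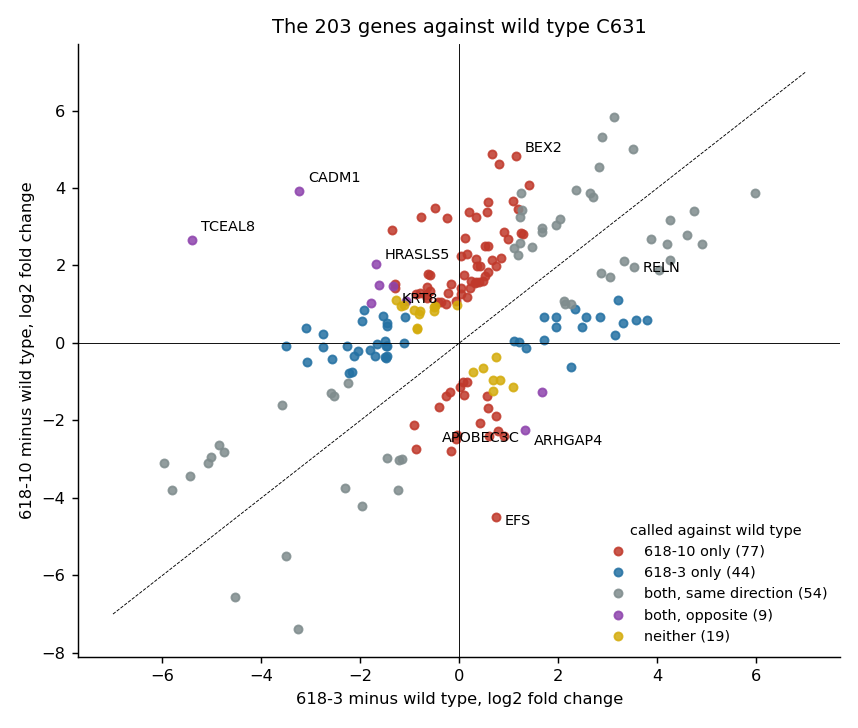
Log2 fold change against wild type C631 in 618-3 (x axis) and in 618-10 (y axis) of the 203 genes called between the clones, with 1 point per gene, coloured by the clone in which the gene was called against wild type. The dashed line marks equal change in both clones, and the 9 purple points, which include TCEAL8 and CADM1 at the upper left, moved in opposite directions.

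The other groups of the table were not part of the pair compared, and their levels show how these genes vary elsewhere. They were in the same fit, though, and helped to set its filter and its estimate of the spread. They are therefore not an outside check on the list. Over the 23 other groups, wild type included, the SD of the group means on the log2 CPM scale had a median of 1.19 for the 203 genes and of 0.23 for all genes tested. For genes that averaged 5 CPM or more the medians were 1.80 for 58 called genes and 0.17 for 10967 tested genes, and below 5 CPM they were 1.02 for 145 and 0.36 for 5192. The called genes were called against wild type in a median of 8 of the 22 other knockout clones, against 0 for all genes tested. Only 6.9% of the 203 were called in none of those clones, against 75.3% of the genes tested. All 22 comparisons share the wild-type libraries, so a level particular to wild type is counted in many clones at once. SMARCA4 also enters with a pair of clones, and these counts are therefore not independent. The level of both clones was inside the range of the other 23 groups for 142 of the 203 genes, 618-10 alone was outside for 35, 618-3 alone for 16 and both for 10. The median pairwise correlation of group means over those 23 groups was 0.014 among genes higher in 618-10 and 0.0075 among genes higher in 618-3. These medians are a description with no test, and none was taken over all genes tested. Such a median can hold pairs that vary together beside pairs that vary in opposite ways.

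**Figure D4:**
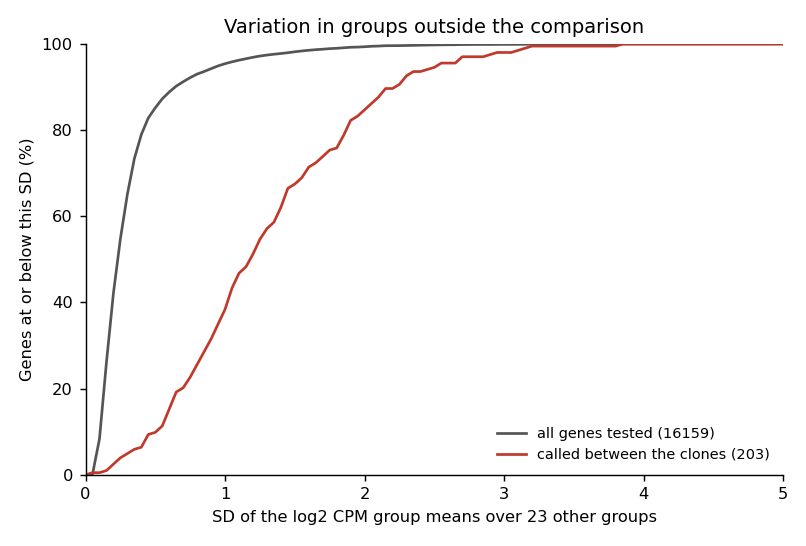
Share of genes (y axis, percent) whose group means vary by no more than a given SD on the log2 CPM scale (x axis) over the 23 groups outside the comparison, for all 16159 genes tested (grey) and for the 203 genes called between the clones (red). The red curve lies to the right of the grey one, with medians of 1.19 and 0.23.

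TCEAL8 is a gene for which 618-10 lay above all other groups. It was called lower than wild type in 22 of the 22 other knockout clones, with a median of 0.0809 CPM and a highest value of 1.49 CPM in SMARCA4 2878-4, so that 618-10, with 25 CPM, was the sole knockout clone above wild type and 618-3, with 0.0886 CPM, was like most others. CADM1 was called higher than wild type in 11 of those clones and lower in 11, from 0.0823 CPM in DPF2 2777-4 to 31 CPM in ARID1B 582-7, and 618-10 was above all of them. EFS was called higher in 5 and lower in 17, from 0.0473 CPM in SMARCD3 2480-12 to 46.9 CPM in ACTB 2471-10. APOBEC3C was called lower in 13 and higher in none, so that the low level of 618-10 was shared by many clones and 618-3 was close to the highest, 52.4 CPM in SMARCD2 2782-10. EPCAM was higher in 618-10 than in any of the 22, whose highest was 4.93 CPM in SMARCA4 2878-4. RELN in 618-3, at 162 CPM, was above all 22, whose highest was 87.7 CPM in BRD7 923-10. FBXL7 was lower in 618-10, at 4.09 CPM, than in any of the 22, whose lowest was 6.15 CPM in DPF1 2779-11.

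**Figure D5:**
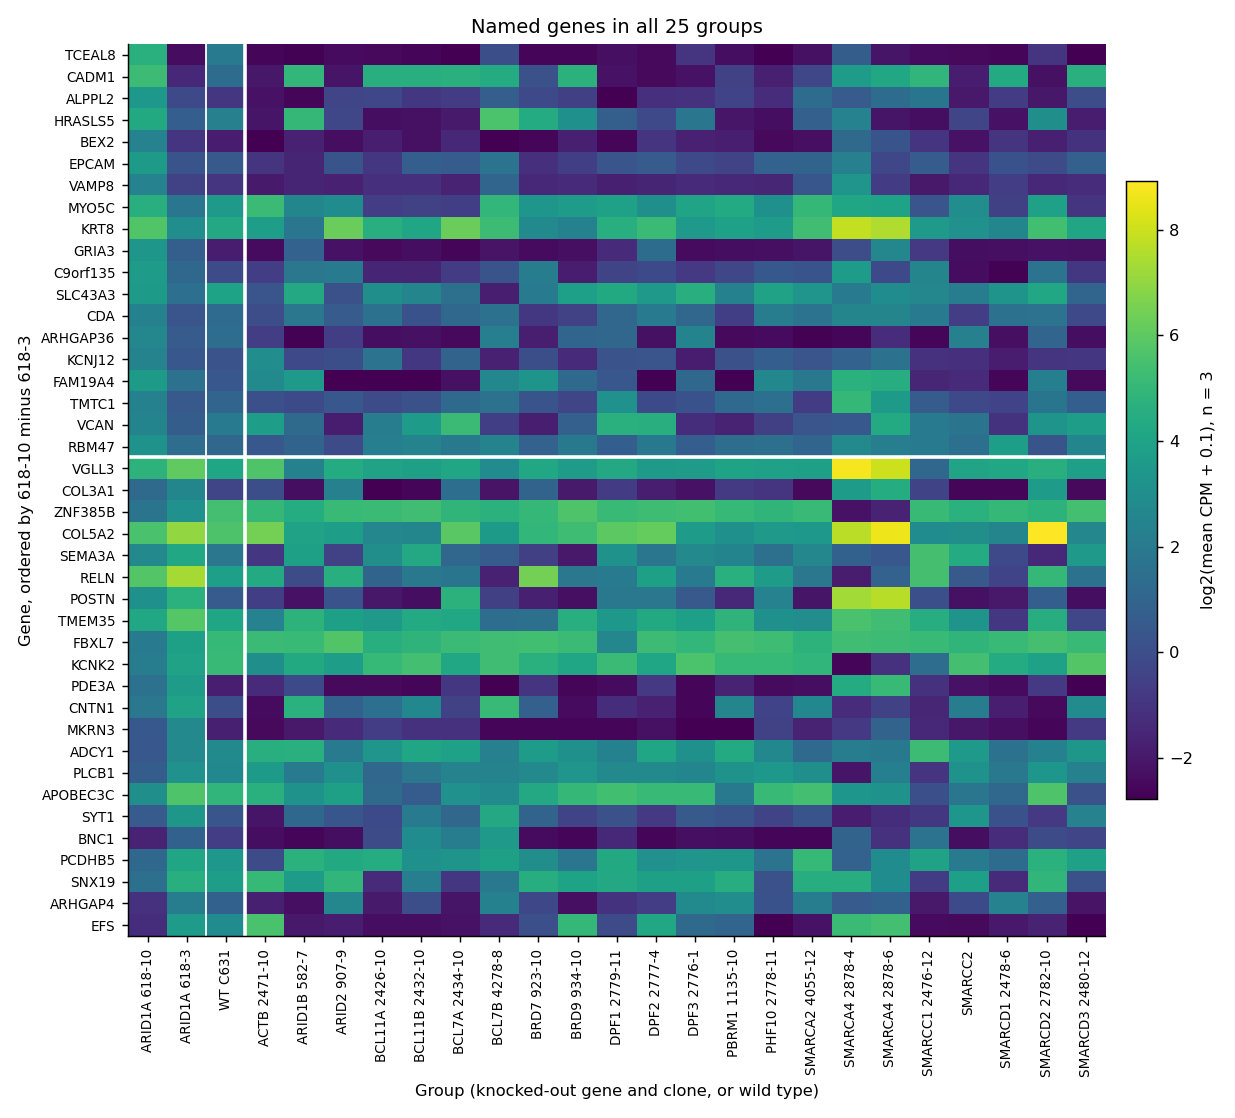
Mean level of named genes (rows, ordered by 618-10 minus 618-3) in all 25 groups (columns), as log2(mean CPM + 0.1) over 3 libraries per group. The first columns are the ARID1A clones and wild type C631, and the white line across separates genes higher in 618-10 (above) from genes higher in 618-3 (below). Rows such as CADM1 and EFS hold both high and low groups, and some clones have like levels. The clones of BCL11A, BCL11B, BCL7A, SMARCC1, SMARCD1 and SMARCD3 had 20.7 to 29.9 CPM of CADM1 and at most 0.157 CPM of EFS. They were not alone in this. ARID1B 582-7 had 30.99 CPM of CADM1 and 0.1545 CPM of EFS, BCL7B 4278-8 21.33 and 0.2851, and 618-10 38.07 and 0.3241. BRD9 934-10 had 26.31 CPM of CADM1 but 32.15 CPM of EFS.

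The other knockout with a pair of clones is SMARCA4, whose clones 2878-4 and 2878-6 share no library with the ARID1A pair. The same test called 299 genes between them (1.85% of those tested), 127 higher in 2878-4 (0.786%) and 172 higher in 2878-6 (1.06%). The lists had 49 genes in common, 24.1% of the ARID1A list and 16.4% of the SMARCA4 list. TCEAL8 (log2 fold change 3.46), HRASLS5 (5.27), VAMP8 (4.30), C9orf135 (4.07), EPCAM (2.82), BEX2 (1.06), SNX19 (1.63), BNC1 (2.33) and TMTC1 (1.43) were called higher in 2878-4. PLCB1 (-5.10), VCAN (-3.99), RELN (-3.34), GRIA3 (-2.74), KCNK2 (-2.29), PCDHB5 (-2.05) and MKRN3 (-1.95) were called higher in 2878-6. Some of these genes were low in both SMARCA4 clones. In 2878-4 and 2878-6, KCNK2 had 0.0653 and 0.36 CPM, RELN 0.168 and 1.77 CPM, and TCEAL8 1.49 and 0.134 CPM. Others were not, such as SNX19 with 22.7 and 7.43 CPM. CADM1 (-0.47) and EFS (-0.25) were not called in the SMARCA4 pair.

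By symbol, 201 of the 203 could be placed in the RefSeq order of the tested genes, whose assembly differs from that of the files, so that neighbours were used and no coordinates. Of these, 22 lay in 10 runs of neighbouring tested genes called in the same direction, and 2 runs had 3 genes, among them PCDHA11, PCDHAC1 and PCDHAC2, higher in 618-3. Whether called genes neighbour each other more often than other genes was not tested. Pairs included GDF3 with DPPA3, S100A16 with S100A14, and COL3A1 with COL5A2. Windows were also taken of 50 successive genes among those that averaged 5 CPM or more, which leaves out 145 of the 203 called genes. Their median log2 fold change lay between -0.09 and 0.07, so none of these windows was shifted as a whole.

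Promoters of the called genes held fewer CG pairs than those of the tested genes. RefSeq promoters of 300 bases (250 before the start and 50 after it, GRCh38.p14) matched 143 of the 203 called genes and 11552 of the 16159 tested. A promoter was counted as CpG-rich when its observed-to-expected ratio of the letters CG was at least 0.6 and its GC content at least 50%. The median number of CG pairs was 15 over called genes and 26 over tested genes. The CpG-rich class held 48.2% of called genes with a promoter and 78.2% of all tested genes with a promoter. Among genes that averaged 5 CPM or more it held 54.1% of 37 called and 85.3% of 8859 tested, and among genes below 5 CPM 46.2% of 106 and 54.7% of 2693. The median GC content of transcripts was 53.2% for genes higher in 618-10, 47.9% for genes higher in 618-3 and 50.1% for all genes tested, and over all genes the log2 fold change had a rank correlation with GC content of 0.036. The part of GC content in the called genes was not tested.

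The threshold on the fold cut through a continuous range. The called genes closest to it were DNM3 (1.02), PDCL3P4 (1.02) and ZNF704 (1.04) on the side of 618-10, and FAM84A (-1.02), KCNN3 (-1.04) and PCDHAC2 (-1.04) on the side of 618-3. Just outside it were DSEL (-0.999), HSPA12B (0.99) and REEP1 (0.99), each with an adjusted p below 0.05.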

How the data were processed

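Poly-A RNA of HAP1 clones was sequenced. The authors deposited a table of expected counts per gene, whole numbers of at least 1 (found from the values), and a table of quantile-normalized log2 TPM, per the file headers. Trimmomatic, Bowtie, Picard and DESeq2 with GRCh37 and hg19 are named per the submitters' processing notes; their versions, the counter and the gene models used are not stated in the sources used here. Expected counts were rounded, which changed nothing, and the 75 labelled libraries of the knockout table were fitted together with 1 term per group in edgeR 4.0.16 (R 4.3.3): filterByExpr, TMM, robust quasi-likelihood F-test, Benjamini-Hochberg adjustment over all 16159 genes left of 35438. SE is the log2 fold change divided by the root of F. The script was tested on simulated data. Alternatives used DESeq2 1.42.0 and, on the deposited log2 TPM, limma 3.58.1. Ratios of summed counts carry exact 95% intervals that cover counting error only.

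Named genes were those called, at 5 CPM or more in the higher clone and without overlap, the first 20 by fold in each direction, plus ARID1A, genes with opposite calls against wild type, called list members, genes at the lowest listed value in 1 clone, runs of 3 neighbours and genes next to the threshold. Members and lists were chosen with earlier results of these data known. In the tables, 8 columns matched no single labelled sample and were not used. Libraries of a clone differed by more than sampling noise (chi-square per degree of freedom 16.2 to 19.4). Some genes these rules select are not reported here.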

Additional observations from a re-analysis of the deposited data

Results flagged for a closer look

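The effects of 8 reported genes against wild type ran in opposite directions in the clones. These genes were taken from those called in the test of 618-10 minus 618-3, so their differences are a description and add no support. TCEAL8 differed by a log2 fold change of 8.07 and CADM1 by 7.15. HRASLS5 differed by 3.71, MYO5C by 2.82, KRT8 by 2.81 and CDA by 2.15, all higher in 618-10. ARHGAP4 (-3.57) and BNC1 (-2.95) were higher in 618-3.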

How the results depend on the processing

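All 203 genes kept the sign of their fold change in every alternative tried. With DESeq2 size factors in edgeR, no filter on low counts, DESeq2, limma on the deposited log2 TPM or any 1 library left out, the counts of called genes stayed within 1.5 times those reported; without 1 library they ranged from 120 to 138 genes higher in 618-10 and from 67 to 73 higher in 618-3. DESeq2 shared 157 of the 203 calls and limma 189. A test against a log2 fold change of 1 (glmTreat) called 43 and 29 genes, and a fit of the 6 ARID1A libraries alone called 92 and 47, with 137 of the 203 calls kept. That fit takes its spread from fewer libraries, and from the ARID1A clones alone. Why calls were lost in it was not tested. A block for the replicate number gave 138 and 74 genes and kept 202 of the 203 calls, but over all genes same-numbered libraries did not all deviate together (correlations 0.25, -0.15 and 0.14). The p53 targets did share a pattern by number, and with the block 3 of 20 had an unadjusted p below 0.05, none had an adjusted p below 0.05, and their median log2 fold change was 0.52. ARID1A itself moved between 0.31 and 0.41 without 1 library. Of 84 named genes, 12 lost their call when 1 library was left out, and 16 lost it under at least 1 alternative, the glmTreat test not counted. With DESeq2, 10 of the 84 were not called. Besides SCNN1A, CLDN7 and GATA4, these included AKR1C3, EFEMP1, EPHA5, ETV1, HGF and PCDHA11. Genes near the lowest listed count limit the size of folds, and p-values over 3 libraries do not cover differences between cultures.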
